A study of Mus musculus with 12 samples.

Results

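The IL-6 family of cytokines was examined in RNA sequencing of inflamed mouse pancreas through 9 genes chosen by name out of 46095 in the deposited table. They are 4 ligand genes (Il6, Il11, Lif and Osm), 4 receptor genes (Il6ra, Il6st, Osmr and Lifr) and Stat3, the transcription factor that the receptors activate. Of the 9 genes, 8 passed the filter on low counts and were tested, and Il11 did not. There were 6 pancreas samples from C57BL/6J wild type mice (WT AP1 to WT AP6) and 6 from Axl-/-Mertk-/- mice (AMKO AP1 to AMKO AP6), all at postnatal day 56. Acute pancreatitis had been induced in all of them with caerulein, a peptide that acts like cholecystokinin and drives acinar cells beyond their normal secretion. It was given intraperitoneally once an hour for 10 doses of 100 µg/kg, and tissue was taken 12 h after the first dose. The series title links inhibition of AXL and MERTK to CXCL2, neutrophil entry and pancreatic necrosis, so the question is what loss of the 2 receptors changes in inflamed tissue. The labels name no promoter or cell type to which the deletion is limited, and they give no strain for the AMKO mice, so receptor loss and strain background cannot be told apart. No untreated pancreas was analysed here, so a response to caerulein itself cannot be read from these values.

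IL-6 family cytokines signal through receptor complexes that share gp130, encoded by Il6st. IL-6 and IL-11 first bind their own receptor subunits, LIF signals through LIFR paired with gp130, and oncostatin M in the mouse signals mainly through OSMR paired with gp130. Janus kinases bound to these receptors phosphorylate STAT3, which enters the nucleus, drives acute phase and survival genes, and induces SOCS3 as a brake. In pancreatitis IL-6 is known as a product of leukocytes and stromal cells, and STAT3 activity in acinar cells is known to accompany injury and regeneration.

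Il6 and Lif are shown because they were the 2 members whose windows held both motifs below, and their fitted differences had opposite signs. Shown are the 250 bases before each RefSeq start site on GRCm38.p6, 5′ to 3′ on the plus strand, at chr5:30012864-30013113 for Il6 and chr11:4257318-4257567 for Lif. Capitals mark matches to the AP-1 motif TGANTCA and to the kappaB consensus, the letters bound by NF-kB.
Il6: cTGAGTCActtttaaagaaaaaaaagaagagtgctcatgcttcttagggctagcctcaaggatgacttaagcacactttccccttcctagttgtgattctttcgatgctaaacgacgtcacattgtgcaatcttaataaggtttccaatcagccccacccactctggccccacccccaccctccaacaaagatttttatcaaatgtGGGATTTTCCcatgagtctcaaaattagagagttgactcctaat
Lif: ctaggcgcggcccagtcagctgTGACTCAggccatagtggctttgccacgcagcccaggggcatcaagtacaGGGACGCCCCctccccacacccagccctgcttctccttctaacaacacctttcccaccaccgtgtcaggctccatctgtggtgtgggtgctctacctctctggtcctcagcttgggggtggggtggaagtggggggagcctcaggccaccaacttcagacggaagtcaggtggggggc
Counted from the start site, the AP-1 match in Il6 lay at -249 to -243 and the kappaB match at -44 to -35. In Lif they lay at -228 to -222 and at -178 to -169. Il11 held an AP-1 match at -98 to -92 and Osmr 1 at 4 to 10, both without a kappaB match. Both strands were searched in windows of 300 bases, which reach 50 bases past the start. Of all 32851 RefSeq windows of that length, 7.81% held the AP-1 motif and 8.46% the kappaB consensus. The STAT motif TTCNNNGAA, held by 8.3% of windows, was found in none of the windows of the 8 members with an entry, and in that of Socs3 at -154 to -146 (TTCTTAGAA). These matches describe letters only.

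The libraries held 10668637 to 15184371 counts, and acinar markers summed to 131212 to 245228 CPM (counts scaled to a common library size by the TMM method), so transcripts of the labelled tissue were abundant in every library. Axl fell in AMKO from 58.9 ± 12.3 to 9.09 ± 2.20 CPM (SD, n = 6 each), a log2 fold change of -2.69 (SE 0.18, edgeR adjusted p = 1.95e-06). Mertk stood at 6.90 ± 2.96 and 6.75 ± 2.39 CPM (adjusted p = 0.968). A count per gene does not tell which exons were covered, so Mertk does not check its label. WT AP3, WT AP6, AMKO AP3 and AMKO AP6 held the fewest neutrophil transcripts (9 markers, summed CPM 58.4 to 76.4, against 204 to 723 in the other 8 libraries) and the fewest monocyte and macrophage transcripts (12 markers, 359 to 562 against 711 to 1627). WT AP1 to WT AP3 had the lowest summed liver transcripts. Results below that move with either set of libraries are given with and without them.

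No member passed the test between the genotypes. With edgeR's quasi-likelihood test adjusted over all 13743 genes tested, 0 of 8 members had an adjusted p under 0.05, while 5.78% of all genes tested did (3.37% lower and 2.41% higher in AMKO). No tested member separated the 2 genotypes without overlap, as 3.54% of all genes did. At an unadjusted p under 0.05 there were 3 members, Lifr, Osm and Il6, all with fitted values below 0, against 21.9% of all genes tested. DESeq2 and limma voom each called 1 member, Lifr, where they called 9.67% and 12.1% of all genes. The fitted values were below 0 for 6 of the 8 members, with a median log2 fold change (AMKO minus WT) of -0.19, and the median over all genes tested was 0.00.

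**Figure D1:**
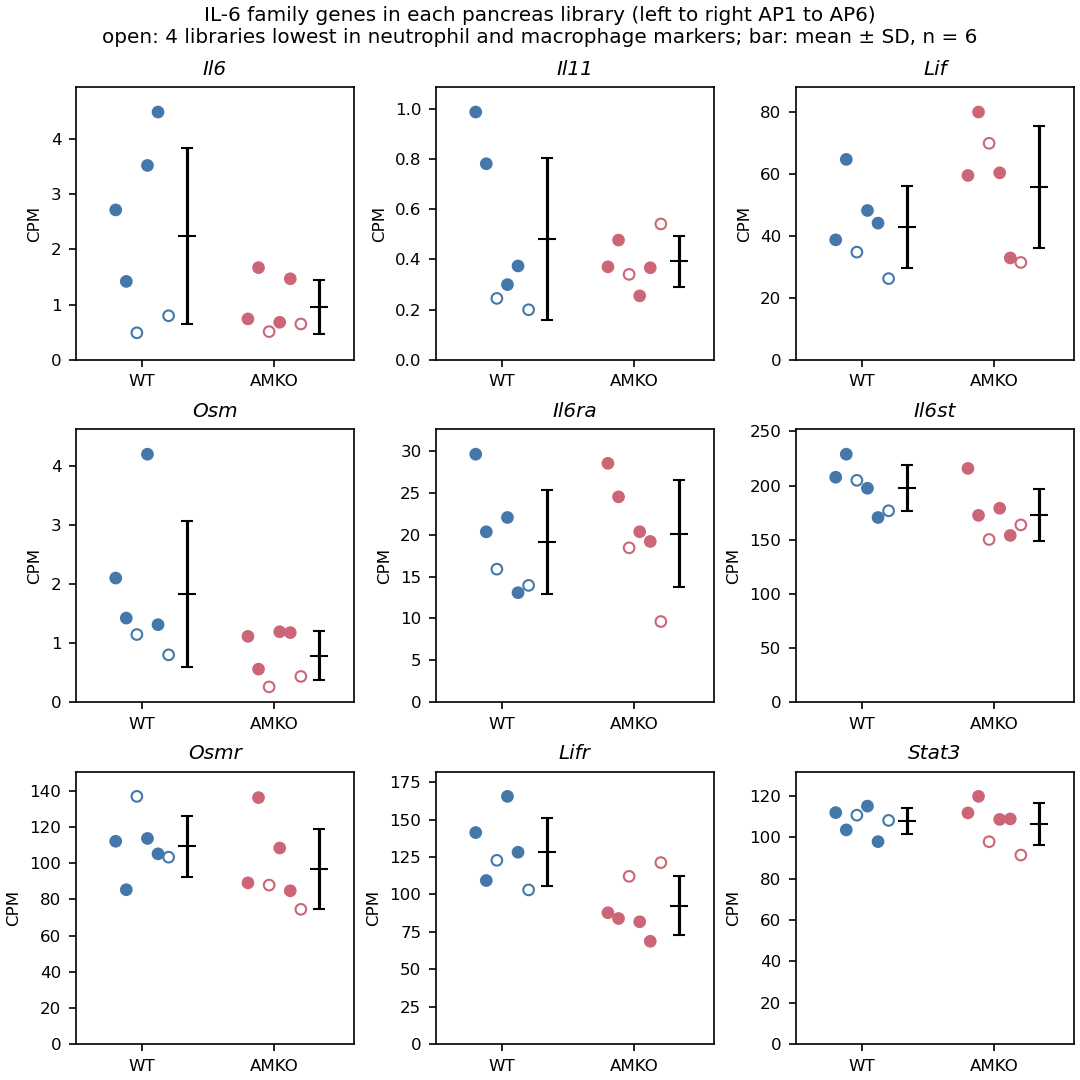
CPM of the 9 genes in each library (points, AP1 to AP6 from left to right) by genotype, with the mean and SD of 6 libraries; open points are the 4 libraries lowest in neutrophil and macrophage markers. Il6 and Osm reach their highest levels in wild type libraries, Lif reaches its highest in AMKO, and Stat3 stays between 91.5 and 119.9 CPM in all 12.

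Among the ligands, Il6 was scarce and variable. The wild type libraries held 6 to 48 counts, equal to 0.49 CPM at the lowest, 2.07 at the median and 4.48 at the highest. In AMKO there were 6 to 21 counts, equal to 0.51, 0.71 and 1.67 CPM. WT AP1, WT AP4 and WT AP5 lay above every AMKO library, whereas WT AP2, WT AP3 and WT AP6 lay within the AMKO range. This gave a log2 fold change of -1.20 (SE 0.50, 95% confidence interval -2.27 to -0.13, edgeR adjusted p = 0.174). It was -1.57 with WT AP4 to WT AP6 as the only wild type libraries and -0.70 with WT AP1 to WT AP3 (adjusted p = 0.170 and 0.551).

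Osm, which encodes oncostatin M, a cytokine made mainly by myeloid and T cells, gave a similar picture. Wild type libraries held 12 to 56 counts, or 0.80, 1.36 and 4.19 CPM at the lowest, the median and the highest. AMKO libraries held 3 to 18 counts, or 0.26, 0.83 and 1.19 CPM. All AMKO libraries lay below WT AP1, WT AP2, WT AP4 and WT AP5, and 3 of them (AMKO AP2, AMKO AP3 and AMKO AP6) lay below every wild type library. Between genotypes the log2 fold change was -1.18 (SE 0.45, 95% confidence interval -2.14 to -0.22, edgeR adjusted p = 0.136). WT AP4, the highest library, weighed on the value, since without it the log2 fold change was -0.76 (adjusted p = 0.311).

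Lif, which encodes leukemia inhibitory factor, was the most abundant ligand transcript and the 1 ligand with a fitted value above 0. It stood at 26.3, 41.5 and 64.8 CPM in wild type (lowest, median and highest) and at 31.5, 60.0 and 80.1 CPM in AMKO. AMKO AP2 and AMKO AP3 exceeded every wild type library, but AMKO AP5 and AMKO AP6 lay below the wild type median. Its log2 fold change of 0.38 (SE 0.25, 95% confidence interval -0.15 to 0.91) did not pass the test (edgeR adjusted p = 0.388). Osm and Lif are neighbours on chromosome 11, at 4236420 to 4241026 and 4257557 to 4272514 of GRCm38, 16.5 kb apart on the same strand, and their fitted values had opposite signs.

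Il11, a cytokine best known from fibroblasts and epithelium, was near the limit of detection. It had 3 to 16 counts in wild type and 3 to 6 in AMKO. The 2 highest libraries were WT AP1 (0.99 CPM) and WT AP2 (0.78 CPM), and the other 4 wild type libraries (0.20 to 0.37 CPM) overlapped AMKO (0.25 to 0.54 CPM). A difference was not detectable at this depth.

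The receptor genes were far better covered. Lifr, the receptor subunit shared by LIF and related cytokines, came closest to passing the test. It stood at 103, 125 and 165 CPM in wild type (lowest, median and highest) and at 68.7, 85.8 and 121 CPM in AMKO. AMKO AP1, AMKO AP2, AMKO AP4 and AMKO AP5 lay below every wild type library, and AMKO AP3 and AMKO AP6 lay inside the wild type range. The log2 fold change was -0.47 (SE 0.14, 95% confidence interval -0.78 to -0.16, edgeR adjusted p = 0.0688). It was called lower with DESeq2 (adjusted p = 0.0312), with limma voom (0.0322), with total-count scaling (0.0418, where 3.32% of all genes were called) and without AMKO AP6 (0.0398, where 3.9% were). Over all 24 alternatives its adjusted p ran from 0.0312 to 0.243.

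The 2 AMKO libraries with high Lifr are also the 2 AMKO libraries lowest in leukocyte markers. In the 8 libraries with more leukocyte transcripts, Lifr ranged from 109 to 165 CPM in WT AP1, WT AP2, WT AP4 and WT AP5 and from 68.7 to 87.8 CPM in the 4 AMKO libraries, with no overlap, as for 8.37% of all genes in these 8 libraries. The fit on these 8 libraries gave a log2 fold change of -0.76 (SE 0.13, edgeR adjusted p = 0.0335), in a comparison where 0.705% of genes were called. In the other 4 libraries Lifr stood at 123 and 103 CPM in WT AP3 and WT AP6 and at 112 and 121 CPM in AMKO AP3 and AMKO AP6, so the genotypes overlapped. Whether the difference itself varies with leukocyte content was not tested. In bulk tissue, fewer cells of a type and less RNA per cell cannot be told apart.

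**Figure D2:**
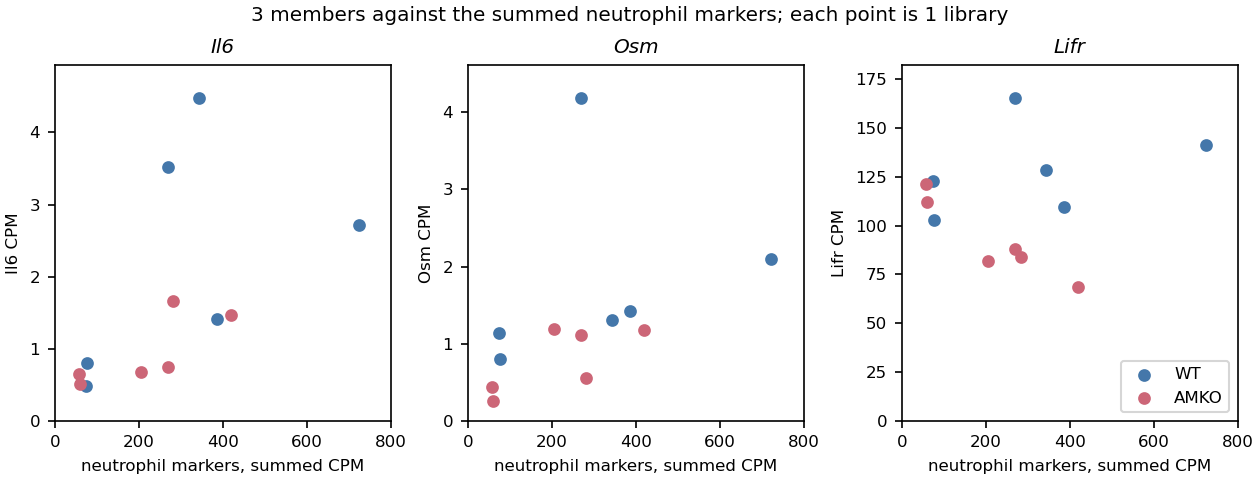
CPM of Il6, Osm and Lifr in each of the 12 libraries (y axis) against the summed CPM of 9 neutrophil markers (x axis), coloured by genotype. At low neutrophil sums (58.4 to 76.4) the genotypes overlap for Il6 and Lifr and not for Osm. At higher sums the 4 AMKO libraries lie below the 4 wild type libraries for Lifr and Osm, and the genotypes overlap for Il6. In these 8 libraries 8.37% of all genes do not overlap between genotypes, counting both directions.

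Il6 and Osm were also low where leukocyte transcripts were few. In those 4 libraries Il6 stood at 0.49 to 0.80 CPM, against 0.68 to 4.48 CPM in the other 8. Osm stood at 0.26 to 1.14 CPM against 0.56 to 4.19 CPM. Within those 8, Osm was 1.31 to 4.19 CPM in wild type and 0.56 to 1.19 CPM in AMKO, without overlap, as for 8.37% of all genes. In the 4 low libraries Osm was 1.14 and 0.80 CPM in WT AP3 and WT AP6, and 0.26 and 0.43 CPM in AMKO AP3 and AMKO AP6. The share of all genes without overlap in these 4 was not computed. AMKO AP1 and AMKO AP4 had Il6 at 0.74 and 0.68 CPM, and neutrophil markers that summed to 270.0 and 204 CPM. AMKO AP2 and AMKO AP5 had Il6 at 1.67 and 1.47 CPM, and sums of 283 and 419 CPM. The part of leukocyte content in the Il6 and Osm values was not tested. Without the 4 libraries low in leukocyte markers, the log2 fold changes were -1.40 for Il6 and -1.16 for Osm. With them they were -1.20 and -1.18. Neither gene passed the test without them (edgeR adjusted p = 0.169 and 0.271). Of the 8 tested neutrophil markers, 0 were called by edgeR, 0 had an unadjusted p under 0.05, and the median log2 fold change was -0.68. Of 12 monocyte and macrophage markers, 0 were called and 1 had an unadjusted p under 0.05 (median 0.36). T cell markers were too few in counts to be tested, at 0.54 to 15.5 summed CPM, and Trac was at 0 in every library.

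Il6st, which encodes the shared subunit gp130, had the highest counts of the family. It stood at 170 to 229 CPM in wild type (median 201) and at 150 to 216 CPM in AMKO (median 168). AMKO AP1, AMKO AP2 and AMKO AP4 were within the wild type range, and the other 3 AMKO libraries lay below all wild type libraries. The log2 fold change was -0.20 (SE 0.10, 95% confidence interval -0.41 to 0.02, edgeR adjusted p = 0.264), and it was -0.06 against WT AP4 to WT AP6 and -0.31 against WT AP1 to WT AP3. The groups overlapped in every receptor gene.

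Osmr, the oncostatin M receptor, ranged from 85.4 to 137 CPM in wild type (median 109) and from 74.5 to 136 CPM in AMKO (median 88.5). Its log2 fold change was -0.18 (SE 0.14, 95% confidence interval -0.48 to 0.12, edgeR adjusted p = 0.498), and 0.01 without the 4 libraries low in leukocyte markers. Osmr and Lifr lie 215.6 kb apart on chromosome 15, at 6813577 to 6874969 and 7090614 to 7197489 of GRCm38. Il6ra, the IL-6 binding subunit, ranged from 13.1 to 29.7 CPM in wild type (median 18.1) and from 9.63 to 28.6 CPM in AMKO (median 19.8), with a log2 fold change of 0.07 (SE 0.24, 95% confidence interval -0.44 to 0.59, edgeR adjusted p = 0.893). AMKO AP6 held the lowest Il6ra of all 12 libraries. An antisense gene overlaps exons of Il6ra, and since the labels do not state the use of strand, its counts are uncertain.

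Fibroblasts, endothelial cells and duct cells express several of these receptors, and their markers were read beside them. Of 8 tested fibroblast markers, 7 had fitted values below 0 (median -0.43), 4 had an unadjusted p under 0.05, and 1 was called lower, Pdgfrb. Their summed CPM ran from 689 to 1220 in wild type and from 545 to 1122 in AMKO. All 7 endothelial markers had fitted values below 0 (median -0.14) and 1, Kdr, was both called lower and the 1 marker at an unadjusted p under 0.05. Endothelial markers summed to 145 to 212 CPM in wild type and to 113 to 179 CPM in AMKO. All 7 duct markers had fitted values below 0 (median -0.30), and 2 were called lower, Spp1 (edgeR adjusted p = 0.0108) and Epcam (0.00851). Duct markers summed to 1977 to 2624 CPM in wild type and to 1541 to 2226 CPM in AMKO. Of 8 acinar markers 2 were called higher, Ptf1a and Bhlha15 (list median 0.08). These 6 genes are named after their values were seen. All 6 AMKO libraries lay below every wild type library for Kdr and Epcam, and above every one for Bhlha15. Over all genes tested, 5.78% were called and 3.54% separated the genotypes without overlap, in either direction. The part of any of these cells in the Lifr values was not tested.

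Stat3 varied little between libraries. It stood at 98.0 to 115 CPM in wild type (median 110) and at 91.5 to 120 CPM in AMKO (median 109), and the groups overlapped throughout. The log2 fold change was -0.02 (SE 0.07, 95% confidence interval -0.17 to 0.14, edgeR adjusted p = 0.904). Exons of Stat3 overlap those of Stat5a on the other strand, so some of its counts may belong to Stat5a. Transcript counts do not measure STAT3 phosphorylation.

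**Figure D3:**
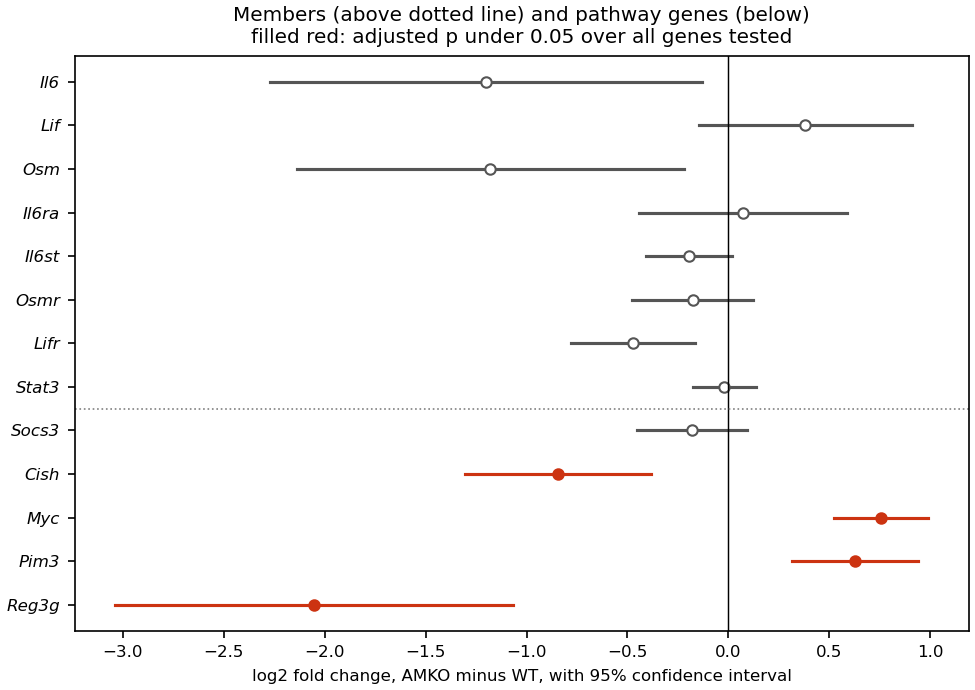
Log2 fold changes (AMKO minus WT, x axis) with 95% confidence intervals for the 8 tested members and for 5 pathway genes. None of the members is filled, meaning none passed the test, and Lifr (-0.47), Osm (-1.18) and Il6 (-1.20) have intervals that lie below 0; of the pathway genes, Cish, Myc, Pim3 and Reg3g passed.

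Levels can be compared between genes only per length of exon. In wild type Il6st led at 17.8 ± 1.94 CPM per kb (SD, n = 6). Lifr (11.9 ± 2.11), Stat3 (11.3 ± 0.65), Lif (9.85 ± 3.03) and Osmr (9.04 ± 1.39 CPM per kb) followed, and neighbours in this order differed by less than the larger of their SDs. Il6ra stood at 2.22 ± 0.72, Il6 at 0.92 ± 0.66, Osm at 0.80 ± 0.54 and Il11 at 0.23 ± 0.16 CPM per kb, where Il6 and Osm differed by less than their spread. In AMKO, below Il6st (15.5 ± 2.15), the order was Lif (12.8 ± 4.53), Stat3 (11.2 ± 1.07), Lifr (8.59 ± 1.85) and Osmr (8.00 ± 1.84 CPM per kb), where Lif and Stat3, and Lifr and Osmr, differed by less than the larger SD, and Stat3 and Lifr by more. Lif was therefore the ligand with the most transcript per length in both genotypes.

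The ratio of Lif to Lifr counts within a library does not depend on how libraries are scaled, and it was chosen after the values were seen. It was 0.255 to 0.593 in wild type (median 0.288) and 0.260 to 0.955 in AMKO (median 0.652). AMKO AP1, AMKO AP2, AMKO AP3 and AMKO AP4 lay above every wild type library, while AMKO AP6 lay near the lowest. The ratio of Osmr to Lifr was 0.687 to 1.12 in wild type and 0.615 to 1.62 in AMKO, with 3 AMKO libraries above the wild type range. Of the other ratios computed, Osmr to Il6st had 1 AMKO library above the wild type range, and Il6ra to Il6st and Lifr to Il6st had 0. Lifr to Il6st was 0.477 to 0.838 in wild type (median 0.640) and 0.407 to 0.746 in AMKO (median 0.472). For that ratio AMKO AP1, AMKO AP4 and AMKO AP5 lay below every wild type library. Il6ra to Il6st was 0.0588 in AMKO AP6, below the lowest wild type value of 0.0767. No ratio was tested.

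Other ligands, receptors and signalling genes of the family were read from the same fit. Of 11 other family genes, 5 passed the filter, and edgeR, DESeq2 and limma voom each called 0. In edgeR there were 0 at an unadjusted p under 0.05 and a median log2 fold change of -0.07. The most abundant was Il11ra1, the receptor subunit that binds IL-11, with 19.1 ± 2.62 CPM in wild type against 18.1 ± 1.99 CPM in AMKO libraries (SD, n = 6 each). Its log2 fold change was -0.07 (SE 0.11, 95% confidence interval -0.31 to 0.16, edgeR adjusted p = 0.734), and it was 0.054 against WT AP1 to WT AP3 alone. Transcripts of Il11ra1 matched Il11ra2 at 98.1% and Gm13305 at 98.6% identity, so its counts are uncertain. Cntfr, the receptor subunit for ciliary neurotrophic factor, stood at 1.79 ± 0.96 and 1.64 ± 0.84 CPM, a log2 fold change of -0.13 (SE 0.43, edgeR adjusted p = 0.894) that was above 0 against WT AP4 to WT AP6 alone (0.16), without WT AP2 (0.16) and without AMKO AP5 (0.079). Clcf1, a ligand of that receptor, had too few counts to be tested, and Ctf2 and Il31 were at 0 in every library.

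Of 12 genes that relay the signal, edgeR called 0, with 3 at an unadjusted p under 0.05 and a median log2 fold change of -0.05. The most abundant, the kinase gene Jak1 (-0.10, SE 0.08, adjusted p = 0.457) and the sheddase gene Adam10 (-0.04, SE 0.06, adjusted p = 0.728), did not pass. Of all genes tested 3.37% were called lower, and of 8 genes that restrain the signal 1 was (list median -0.04). This was Cish, a SOCS family gene best known as a target of STAT5, from 57.9 ± 18.8 to 32.3 ± 7.94 CPM. Its log2 fold change was -0.84 (SE 0.22, edgeR adjusted p = 0.0348), and 4 of 6 AMKO libraries lay below every wild type library. The call was lost with limma voom (adjusted p = 0.0536) and in 7 of 12 fits without 1 library, those without WT AP1, WT AP3, WT AP4, WT AP6, AMKO AP1, AMKO AP3 or AMKO AP6 (adjusted p up to 0.0796), and the log2 fold change was -0.47 (adjusted p = 0.381) without the 4 libraries low in leukocyte markers. Exons of Cish overlap 2 other annotated genes, so its counts are uncertain. Socs3, the brake that STAT3 induces, had a log2 fold change of -0.18 (SE 0.13, 95% confidence interval -0.46 to 0.09, edgeR adjusted p = 0.430).

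**Figure D4:**
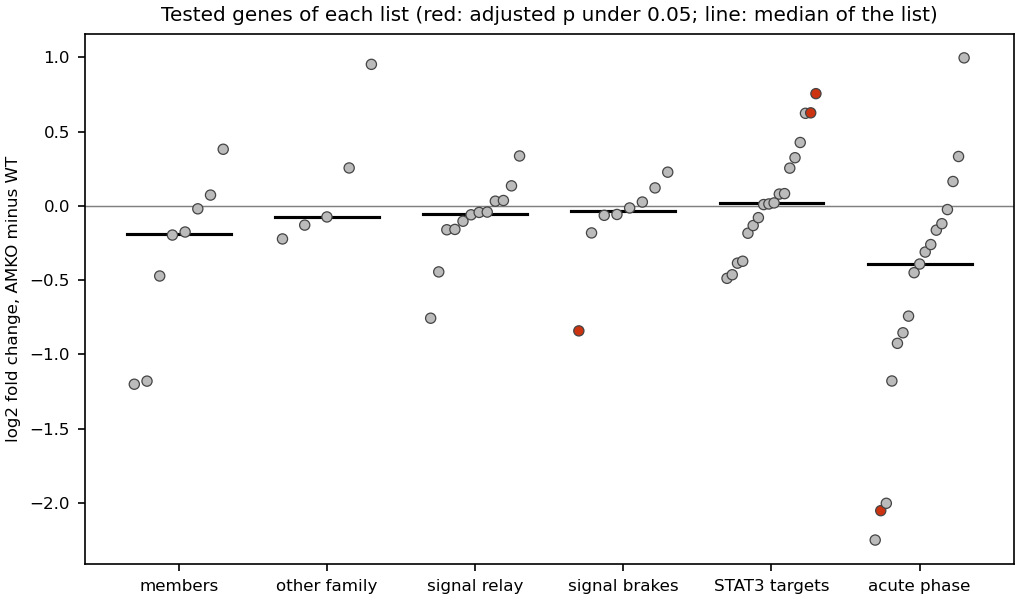
Log2 fold changes (y axis, AMKO minus WT) of the tested genes of each list, sorted within the list, with the median as a line. Calls are few and go in both directions: 0 of 8 members, 0 of 5 other family genes, 0 of 12 relay genes, 1 of 8 brakes, 2 of 18 STAT3 targets and 1 of 17 acute phase genes. Of all genes tested, 5.78% were called.

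Among 18 tested STAT3 targets 2 rose and 0 fell, with a median log2 fold change of 0.02. At an unadjusted p under 0.05 there were 5, against 21.9% of all genes tested. Of all genes tested, 2.41% were called higher and 3.37% lower. Myc, a transcription factor of growth, rose from 26.2 ± 4.15 to 44.3 ± 4.58 CPM (0.76, SE 0.11, edgeR adjusted p = 0.00153). Every AMKO library lay above every wild type library for Myc, as for 1.24% of all genes tested, and it was called in all 24 alternatives. Pim3, a kinase gene, rose from 18.3 ± 2.98 to 28.3 ± 5.77 CPM (0.63, SE 0.15, edgeR adjusted p = 0.0226), a call lost without AMKO AP2 (0.0598), AMKO AP3 (0.0575) or the 4 libraries low in leukocyte markers (0.185). Both genes answer to many other signals besides STAT3. Bcl2l1, another target picked out after its value was seen, did not pass at 0.43 (SE 0.14, edgeR adjusted p = 0.0883). DESeq2 and limma voom called Bcl2l1 higher, where they called 9.67% and 12.1% of all genes. With WT AP4 to WT AP6 or WT AP1 to WT AP3 as the only wild type libraries, Pim3 and Cish were not called (edgeR adjusted p = 0.0783 to 0.176), whereas Myc was (0.0190 and 0.0280).

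Of 17 tested acute phase and Reg genes, 14 had fitted values below 0 (median -0.39). At an unadjusted p under 0.05 there were 5 of them, against 21.9% of all genes tested. Of all genes tested 3.37% were called lower, and of these 17 genes 1 was. This was Reg3g, a secreted antibacterial lectin, from 77.5 ± 32.4 to 19.0 ± 16.0 CPM (-2.05, SE 0.46, edgeR adjusted p = 0.0192). In 5 of 6 AMKO libraries Reg3g was below every wild type library, and AMKO AP6 stood within their range at 50.1 CPM. The call was lost without AMKO AP2 (0.0521), and against WT AP4 to WT AP6 (0.0897) or WT AP1 to WT AP3 alone (0.109). The related lectin gene Reg3b, picked out after its value was seen, did not pass at -2.25 (SE 0.66, edgeR adjusted p = 0.0615). Reg3b was called lower with DESeq2 and limma voom, which called 9.67% and 12.1% of all genes. It was also called without WT AP2, WT AP5 or AMKO AP6, and not in the other alternatives. Lbp (-0.39, edgeR adjusted p = 0.0633) and Itih4 (-0.93, edgeR adjusted p = 0.0860), also picked out after their values were seen, did not pass either. DESeq2 called Lbp lower, and limma voom called Lbp and Itih4 lower and Fgb higher. The summed CPM of the list ran from 13448 to 29341 in wild type and from 7806 to 22468 in AMKO, and Reg1 and Reg2 made up most of it.

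The genes whose profile over the 12 libraries was nearest to a member were found among 11124 genes by the root mean square difference of standardised log2 CPM, where 0 means identical profiles. Nearest to Il6 were Ppid (0.44), Basp1 (0.49) and Saa1 (0.49), the last an acute phase gene. Nearest to Osmr were Arrdc4 (0.45), Mum1l1 (0.48) and Cacfd1 (0.49). Nearest to Stat3 were Hif1a (0.47), the gene of the hypoxia-inducible factor, Slc35e3 (0.49) and Slc45a4 (0.52). None of these 9 genes passed the test between genotypes (edgeR adjusted p = 0.239 to 0.985). How near the closest of 11124 genes would lie by chance was not computed, and the Il6 profile rests on 6 to 48 counts.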

How the data were processed

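RNA from 12 pancreas samples was analysed. Per the submitters' processing notes, the aligner was HISAT2 2.0.4 and the build mm10. The sources used here do not give the read counter, its annotation, the use of strand or the handling of reads with several matches. The authors deposited raw counts, 1 table of 46095 gene symbols whose columns were matched to samples by title. The genotypes were compared with edgeR 4.0.16 under R 4.3.3, using its quasi-likelihood test on those counts. Low genes were removed with filterByExpr, libraries were scaled by TMM, and the model held genotype alone. P-values were adjusted by Benjamini-Hochberg over 13743 genes, and a gene was called at an adjusted p under 0.05. Log2 CPM used a prior count of 2. The scripts were tested on simulated data.

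Nothing in the labels ties a sample to a mouse, so p-values measure the spread between samples, which may be technical. No 2 libraries of a genotype agreed within sampling noise (chi-square over degrees of freedom of 9.93 to 73.3), so each was counted as its own sample. Gene positions and exon lengths came from GENCODE M21 on GRCm38, the assembly mm10 names, and start site sequences from RefSeq (GRCm38.p6), matched by symbol for 8 of 9 members. Near-identical copies were sought with BLAST 2.17.0, and none was found for a member. Alternatives were other scaling (RLE, upper quartile, total counts, or TMM leaving out the 50 highest genes), other filters (none, or at least 1 CPM in 6 libraries), DESeq2 1.42.0, limma 3.58.1 voom with quality weights, the replicate number as a block, each library left out, and 3 sets of libraries. The members, lists, library sets and the rule for named genes were chosen with earlier results of these data known. The rule takes all members and Socs3, called genes of each pathway list (otherwise its 2 most abundant), and the 3 nearest profiles of Il6, Osmr and Stat3. 1 gene of the other family list is not reported here and was left out of that list's counts.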

Additional observations from a re-analysis of the deposited data

How the results depend on the processing

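The number of genes called was 456 with total-count scaling, 1302 with DESeq2, 1664 with limma voom, 167 and 231 with WT AP4 to WT AP6 or WT AP1 to WT AP3 as the only wild type libraries, and 98 without the 4 libraries low in leukocyte markers, against 794. It ran from 411 (without AMKO AP3) to 1140 (without AMKO AP5) when 1 library was left out, and was also low without AMKO AP2 (421), WT AP4 (505) and WT AP2 (524). Members called were 1, Lifr each time, with total-count scaling, DESeq2, limma voom and without the 4 libraries, and 0 to 1 with 1 library left out. Other family and signalling genes called were 1, but 2 with DESeq2, 3 with limma voom, 2 with the replicate block, 0 with either set of 3 wild type libraries and 0 without the 4 libraries, and 0 to 3 with 1 library left out. STAT3 target and acute phase genes called were 3, but 6 with DESeq2, 8 with limma voom, 6 with the replicate block and 1 against WT AP4 to WT AP6, and 1 to 5 with 1 library left out. Signs turned for Il6ra against WT AP1 to WT AP3 (-0.12) and with 1 library left out (-0.041 to 0.25), Osmr without the 4 libraries (0.0068), Stat3 against WT AP4 to WT AP6 (0.0041), without the 4 libraries (0.067) and with 1 library left out (-0.057 to 0.026), Adam10 against WT AP4 to WT AP6 (0.011), Il11ra1 against WT AP1 to WT AP3 (0.054), and Cntfr against WT AP4 to WT AP6 (0.16) and with 1 library left out (-0.30 to 0.16). Where fewer libraries entered a fit, fewer samples are part of its construction; otherwise the cause was not tested. The Pim3 call was lost with total-count scaling (adjusted p = 0.0535). Il11 had a value only without a count filter (-0.31, adjusted p = 0.766).

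No label says what replicate numbers share. They were not taken as pairs, which required all 6 same-numbered pairs to have deviations correlated above 0.1. This held in 4 of 6 (-0.16 to 0.35), a partial link, and 2 of 6 wild type libraries correlated best with their own number. With the replicate block 910 genes, 0 members and 2 other family and signalling genes were called, and Cish was not (adjusted p = 0.0690). Osm had an edgeR adjusted p of 0.0539 with the block and 0.136 without. The 4 libraries low in leukocyte markers carry the same numbers in both genotypes. Il6, Osm and Il11, at 3 to 56 counts, are limited by depth.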
